A study of Mus musculus with 6 samples.

Results

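The 10 genes described here encode the tubulins and microtubule-associated proteins that are most characteristic of young neurons, namely Tuba1a, Tubb2a, Tubb2b, Tubb3, Dcx, Map1b, Map2, Mapt, Stmn2 and Dpysl3. They were chosen by name, and all 10 were found by gene symbol among the 17348 genes of the deposited expression table. RNA was sequenced from dissected cortex of E13.5 mouse embryos, with 3 libraries labelled WT and 3 labelled cKO, and each library is called by its genotype and replicate number. Where values of single libraries are listed for a genotype, they follow the order of replicates 1, 2 and 3. The cKO embryos carry the Nestin-Cre transgene and floxed Ybx1 alleles. As background, Nestin-Cre is used to delete genes in neural progenitors and hence in the neurons made from them, and a dissected cortex also holds cells of other lineages. The floxed line was made in C57BL/6J eggs. The RNA-seq methods call the WT embryos wild type control littermates. Elsewhere the study's controls are Ybx1 fl/fl without Cre, and the labels do not say which applies here. A control that carries Nestin-Cre alone is not among the samples, and the number of embryos per library and their sex are not given in the labels.

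Microtubules are hollow polymers of α- and β-tubulin dimers, and a neuron uses them to migrate, to build its axon and dendrites and to carry cargo. A radial glial cell that gives rise to a neuron changes its tubulin isotypes and switches on a set of microtubule-binding proteins, so these transcripts are widely used to mark neuronal commitment in the embryonic cortex. Tuba1a is the main α-tubulin of postmitotic neurons, Tubb2a and Tubb2b are closely related β-tubulins, and Tubb3 (recognised by the TuJ1 antibody) is the classical neuron-specific β-tubulin. Dcx (doublecortin) stabilises microtubules in migrating neurons, Map1b acts in growing axons, Map2 belongs to dendrites and Mapt (tau) to axons. All 4 are microtubule-associated proteins. Stmn2 (SCG10) destabilises microtubules in growth cones, and Dpysl3 (CRMP4) is a collapsin response mediator that binds tubulin and acts in axon outgrowth.

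Near-identical tubulin copies limit how well each isotype can be counted, so the coding sequences were compared first, taken from GENCODE M21 on GRCm38, a build that the submitters' processing notes also name. Tubb2a lies on chromosome 13 from 34074278 to 34078008 and Tubb2b on the same chromosome from 34127008 to 34130354. Their coding sequences are each 1338 bases long and differ at 47 bases (96.5% identity), and the longest run without a difference is 551 bases. The 30 coding bases within an exon at which they differ most (coding bases 61 to 90) are shown with the differing letters in capitals, followed by the last 30 coding bases, which encode the acidic tail where β-tubulin isotypes usually diverge. All are on the minus strand, at chr13:34076625-34076654 and chr13:34074468-34074497 for Tubb2a and at chr13:34129322-34129351 and chr13:34127471-34127500 for Tubb2b.
Tubb2a, coding bases 61 to 90: tgggaggtGatAagCgatgagcatggCatC
Tubb2b, coding bases 61 to 90: tgggaggtCatCagTgatgagcatggTatA
Tubb2a, last 30 coding bases: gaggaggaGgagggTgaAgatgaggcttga
Tubb2b, last 30 coding bases: gaggaggaAgagggCgaGgatgaggcttga

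The first window holds 5 differences and the tail only 3. Of all stretches of 50 coding bases in Tubb2a, 55.2% occur unchanged in Tubb2b, and of stretches of 100 coding bases 43.8% do. A read that lies wholly within such a stretch cannot be assigned by sequence alone, so the share of such reads depends on read length. The deposited counts carry the mark of this sharing. The values of both genes were fractional in all 6 libraries, yet their sum was a whole number in 6 of 6 (within 0.02), for example 36355 in WT replicate 1. Reads were thus divided between this pair, and the split between Tubb2a and Tubb2b is uncertain while their sum is not affected by it.

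Tuba1a has close copies in Tuba1b and Tuba1c. Its coding sequence of 1356 bases differs from that of Tuba1b at 23 bases (98.3% identity), and 10 of these fall in 1 window of 30 bases, at chr15:98950691-98950720 in Tuba1a and chr15:98932239-98932268 in Tuba1b, both on the minus strand. Capitals again mark the bases that differ between them.
Tuba1a, coding bases 670 to 699: tacacTaacctAaacAgGTtGatAGgTcaA
Tuba1b, coding bases 670 to 699: tacacCaacctTaacCgCCtTatTAgCcaG

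The counts of Tuba1a were fractional in all 6 libraries, and the sum over Tuba1a, Tuba1b and Tuba1c was whole in 6 of 6 (within 0.02). Reads were thus divided among these genes too, and the split between them is uncertain. Tubb3, Dcx, Map1b, Mapt, Stmn2 and Dpysl3 had whole counts throughout, and Map2 was fractional in 1 library.

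The libraries held between 15907486 and 16282921 estimated counts, and 13340 genes, all 10 members included, had enough counts to be tested. CPM below means counts scaled to a common library total after TMM normalisation, which corrects for differences in composition, and is compared only between libraries. TPM is corrected for transcript length as well and is used to compare genes. Ybx1, the deleted gene, was at 1021, 528 and 1220 CPM in WT and at 83.1, 117 and 147 in cKO, and WT replicate 2 had the lowest level of its genotype, with 528 CPM. In the library labelled cKO replicate 3, skin and fibroblast transcripts stood apart, with 2153 counts of Krt5 against at most 1 in any other library and 2995 counts of Col3a1 against at most 72. Both libraries are left out together as an alternative wherever that matters. No 2 libraries had equal counts in more than 1.66% of the tested genes, and none was treated as a duplicate. The study's methods speak of 3 independent replicate experiments. Nothing in the labels says that the libraries came from separate embryos, so the p-values measure the spread between these libraries.

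The members covered a wide range of levels, and Tuba1a was among the most abundant transcripts of the whole table. It lies on chromosome 15 (98949847 to 98953501) and averaged 8974 ± 667 TPM in WT and 8913 ± 751 in cKO (SD, n = 3 each), which placed it between rank 1 and rank 3 of all genes in each library. Tubb2b followed at 2828 ± 159 TPM in WT and 2800 ± 152 in cKO, and Tubb3 (chromosome 8, 123411553 to 123422015) at 1155 ± 159 and 1185 ± 160. The ranges of these 3 over the 6 libraries did not overlap each other or those of the other members. Below them, Dpysl3 averaged 484 TPM over all 6 libraries, Map1b 416, Map2 364 and Stmn2 319, and each of these 4 overlapped its neighbour in range. Within libraries, Dpysl3 exceeded Map1b in 6 of 6 and Map1b exceeded Map2 in 5 of 6. Tubb2a, at 261 TPM, and Dcx, at 253, could not be ordered, since Tubb2a was the higher in only 4 of 6 libraries. Mapt (chromosome 11, 104229409 to 104332090) was the least abundant at 110 TPM, apart from all others in range. Together the 10 genes accounted for between 1.40% and 1.65% of all TPM in a library.

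Among tubulins, the TPM values showed which isotypes made up the pool of each dimer partner, and no isotype share differed between genotypes beyond the spread of the libraries. The α-tubulin pool (7 genes listed) was dominated by Tuba1a, whose share was 80.5%, 73.8% and 75.6% in WT and 81.6%, 72.4% and 75.0% in cKO. The mean share was 76.6% ± 3.51 in WT and 76.3% ± 4.77 in cKO (SD, n = 3 each). Tuba1b, an α-tubulin that dividing cells use widely, supplied most of the rest, with 22.0% ± 3.37 in WT and 22.3% ± 4.53 in cKO. The shares of Tuba1a and Tuba1b rest on the uncertain division of reads between them. Replicates 1 of both genotypes had the highest Tuba1a share and the lowest Tuba1b share, 18.2% in WT and 17.2% in cKO.

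The β-tubulin pool (8 genes listed) was shared more evenly. Tubb2b held 37.5% ± 0.640 in WT and 37.2% ± 1.10 in cKO, and Tubb5, the β-tubulin of proliferating cells, held 36.2% ± 0.946 and 35.7% ± 2.34. Tubb3 made up 15.3% ± 1.56 in WT and 15.7% ± 1.68 in cKO, and reached its highest shares, 17.1% and 17.6%, in replicates 1 of WT and cKO. Tubb2a held 3.44% ± 0.0842 and 3.48% ± 0.220. The ratio of Tubb2b to Tubb2a stayed between 10.2 and 11.2 in the 6 libraries, but it too rests on an uncertain division of reads.

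**Figure D1:**
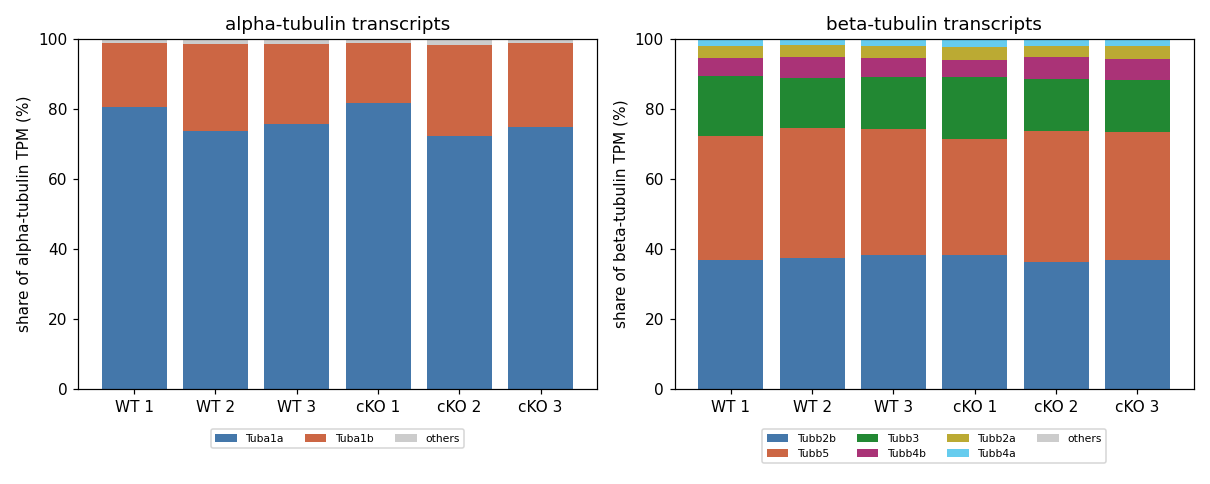
Share of each gene in the summed TPM of α-tubulin (left) and β-tubulin (right) transcripts, in percent, with a stacked bar for each of the 6 libraries. Tuba1a holds between 72.4% and 81.6% of the α pool. Of the β pool, Tubb2b holds between 36.2% and 38.4% and Tubb5 between 33.0% and 37.4%.

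Whether deletion of Ybx1 altered these transcripts was tested with edgeR's quasi-likelihood test on all 13340 genes. At an adjusted p-value under 0.05, 0 of the 10 members were higher and 0 were lower in cKO, and the same held for all genes (0% called in each direction). The adjusted p-value was 0.99995 for every member. DESeq2 and limma-voom also called 0 of the 10. Even the deleted gene, Ybx1, missed the 0.05 threshold by edgeR. Its percent change in cKO was -87.5%, yet its p-value after adjustment was 0.128. Ybx1 had a larger standard error (0.33 in log2 units) than any member (from 0.073 for Tubb2a to 0.12 for Mapt). Its miss therefore sets no detection limit for the members. The lack of a call does not show that a member was unchanged, and the 95% intervals below give the sizes of change that remain possible. At an unadjusted p-value under 0.05, 1 member (Map1b) was lower and 0 were higher, where 1.81% of all genes were lower and 1.75% were higher. Map1b was also the only member whose cKO libraries all lay below its WT libraries, a separation found in 4.83% of all genes, and 0 members were separated in the other direction, as 4.21% of genes were. The log2 fold change was negative for 7 of the 10 members and positive for 3, beside 49.2% and 50.8% of all genes. Its median was -0.03 over the members and 0.0019 over all genes. As this is bulk RNA, fewer neurons and less RNA per neuron cannot be told apart in any of these values.

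The 4 neuronal tubulins were at nearly the same level in both genotypes. The split of reads between Tuba1a and its close copies is uncertain. Tuba1a was at 5637, 5330 and 5844 CPM in WT and at 5850, 5316 and 5489 in cKO. These ranges covered each other almost fully. The percent change in cKO was -0.927% with a 95% interval from -14.3% to 14.5%. Tubb2b was at 2124, 2157 and 2361 CPM in WT and at 2243, 2184 and 2127 in cKO, and the change was -1.34% (95% interval -13.7% to 12.8%). Tubb2a, for which the split with Tubb2b is uncertain, had 159, 157 and 176 CPM in WT and 170, 157 and 169 in cKO (0.745%, 95% interval -10.4% to 13.3%). None of these 3 intervals reached 15% in either direction.

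Among the 4 member tubulins, Tubb3 varied most between libraries of the same genotype. It was at 872, 724 and 806 CPM in WT and at 917, 793 and 751 in cKO. Replicates 1 were the highest in both genotypes, and the genotypes overlapped. The change was 2.49%, with a 95% interval from -13.7% to 21.7%. The standard deviation within genotypes was 0.14 on the log2 scale for Tubb3, against 0.069 for Tuba1a, 0.064 for Tubb2b and 0.14 for the median of all tested genes.

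The 4 microtubule-associated proteins had negative fold changes without exception, and Map1b had the lowest p-value of all members. Map1b (chromosome 13, 99421464 to 99516602) was at 2595, 2321 and 2521 CPM in WT and at 2099, 2220 and 1968 in cKO. Each cKO library lay below each WT library, though cKO replicate 2 and WT replicate 2 were close. The mean was 2479 ± 142 CPM in WT and 2096 ± 126 in cKO (SD, n = 3 each). This is a percent change of -15.5% (95% interval -26.8% to -2.37%), or -0.24 ± 0.09 (SE) as a log2 fold change. By edgeR the unadjusted p-value was 0.0275 and the adjusted one 0.99995. Map1b therefore did not pass, and it ranked 231 of all genes by p-value. The exact permutation test of 3 against 3 libraries cannot go below 0.1.

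The unadjusted value of Map1b stayed under 0.05 in 13 of the 17 alternatives, with the lowest, 0.00298, by DESeq2. It rose above 0.05 only in fits that left libraries out. Refitted with edgeR, it became 0.0547 when WT replicate 1 was left out, 0.0993 when WT replicate 3 was, and 0.125 when cKO replicate 3 was. It was 0.140 with WT replicate 2 and cKO replicate 3 both left out, although the log2 fold change there was again -0.24. Across all 17 alternatives the log2 fold change stayed between -0.29 and -0.20.

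Mapt was at 292, 248 and 277 CPM in WT and at 268, 196 and 224 in cKO. Its mean in cKO was the lower, but cKO replicate 1 lay above WT replicate 2, so the genotypes overlapped. The percent change was -15.8% (95% interval -30.6% to 2.19%), or -0.25 ± 0.12 (SE) in log2 units, at an unadjusted p-value of 0.0746 by edgeR. Mapt also had the largest spread within genotypes of the members, 0.18 on the log2 scale. Without cKO replicate 1 its log2 fold change was -0.36 and without cKO replicate 2 it was -0.15.

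Map2 (chromosome 1, 66175202 to 66442583) was at 1125, 1076 and 1080 CPM in the WT libraries and at 1114, 950 and 966 in the cKO libraries. Replicate 1 of cKO was at the WT level and the other 2 cKO libraries were lower. The percent change was -7.67% (95% interval -19.9% to 6.39%). Dcx (chromosome X, 143855842 to 143933396) was at 1145, 994 and 1109 CPM in WT and at 1139, 909 and 984 in cKO, with a percent change of -6.64% (95% interval -21.3% to 10.7%). For Dcx too, replicate 1 of cKO was as high as the WT libraries.

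Summed over the 4 genes, microtubule-associated transcripts were at 5157, 4639 and 4987 CPM in WT and at 4620, 4276 and 4142 in cKO. All cKO sums lay below all WT sums, with cKO replicate 1 only just below WT replicate 2. The separation rested on Map1b, since the sum of the 3 other genes was at 2562, 2318 and 2466 CPM in WT and at 2520, 2055 and 2174 in cKO and overlapped.

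The last pair of members act on microtubule dynamics and axon outgrowth. Stmn2 (chromosome 3, 8509527 to 8561604) was at 237, 229 and 258 CPM in the WT libraries and at 287, 227 and 240 in the cKO libraries, so cKO replicate 1 alone exceeded the WT range. Its percent change was 4.09% (95% interval -11.5% to 22.5%). Dpysl3 was at 1239, 1168 and 1182 CPM in WT and at 1263, 1079 and 1154 in cKO, with a percent change of -2.59% (95% interval -15.2% to 11.9%).

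**Figure D2:**
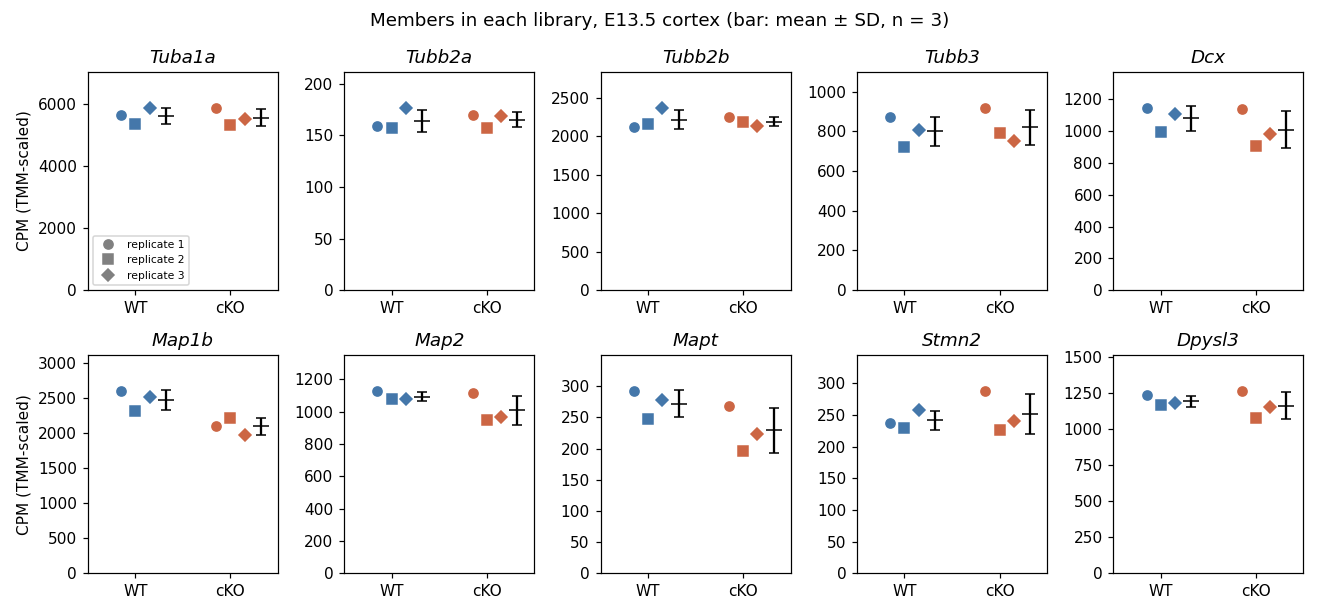
TMM-scaled CPM of the 10 members in each library, with symbols for replicate number, blue for WT and orange for cKO, and black bars for the mean ± SD (n = 3). The axes start at 0. Only for Map1b do all cKO points (1968 to 2220) lie below all WT points (2321 to 2595).

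The fold changes of the members differed in sign and size, and whether these differences exceed a common shift was not tested. Their proportions to each other were also compared within libraries, where library scaling cancels. Relative to the mean log2 level of the other 9 members, Mapt was lower in all cKO libraries than in all WT libraries (-2.14 ± 0.139 against -1.93 ± 0.0677, SD, n = 3 each). Stmn2 was higher in all cKO libraries (-1.99 ± 0.0797 against -2.12 ± 0.0633). These separations were narrow. Mapt reached up to -2.01 in cKO and down to -1.99 in WT, and Stmn2 down to -2.055 in cKO and up to -2.061 in WT. The reference for Stmn2 includes Map1b and Mapt, which had negative fold changes. For Map1b the relative level was 1.65, 1.60 and 1.59 in WT and 1.29, 1.60 and 1.37 in cKO. In cKO replicate 2 Map1b was thus in the WT range once the other members were taken as the reference. The TPM ratio of Dcx to Mapt was between 2.16 and 2.22 in WT and between 2.35 and 2.56 in cKO, without overlap. The ratio of Map1b to Map2 was 1.23, 1.12 and 1.24 in WT and 0.987, 1.23 and 1.07 in cKO, and overlapped. Of the 10 relative levels, 2 were separated between genotypes, as was 1 of the 7 ratios computed, and the share of such separations among other genes was not computed. These ratios were chosen after the values were seen and are given without a test.

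The libraries of each genotype differed in the level of other neuronal genes, and the members ordered the libraries in much the same way. A list of 22 other neuronal genes, among them the transcription factors Neurod2, Tbr1 and Bcl11b and the RNA-binding protein Elavl3, summed to 6664, 5171 and 5843 CPM in WT and to 6803, 4991 and 4819 in cKO. Replicates 1 of both genotypes were the highest, and the genotypes overlapped. All 22 had counts in the table and none was at 0. In log2 CPM, 19 and 21 of the 22 genes lay above their own mean over the 6 libraries in WT replicate 1 and cKO replicate 1, and 15 in WT replicate 3. Only 4 did so in WT replicate 2, 1 in cKO replicate 2 and 1 in cKO replicate 3.

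Of the 10 members, 7 lay above their own mean in WT replicate 1, 9 in cKO replicate 1 and 9 in WT replicate 3, compared with 2 in WT replicate 2, 0 in cKO replicate 2 and 1 in cKO replicate 3. Averaged over the 10 members, the deviation from the mean was 0.071, -0.044 and 0.078 log2 units in WT and 0.085, -0.11 and -0.077 in cKO. The lowest library was cKO replicate 2 for 6 of the 10 members. Dcx, Tubb3 and Mapt had wider swings than Tuba1a, Tubb2a and Tubb2b, with Mapt reaching -0.34 in cKO replicate 2.

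The radial glia list ordered the libraries differently. The 15 radial glia genes, Pax6, Sox2 and Vim among them, summed to 3672, 4338 and 4431 CPM in WT and to 3420, 4690 and 4103 in cKO, so that replicates 1, highest for neuronal genes, were the lowest. Their median deviation from the WT mean was lowest there as well (-0.16 log2 units in WT and -0.22 in cKO). Not every gene followed, as Lhx2 was highest in WT replicate 1 (679 CPM), and Sox2 had its lowest WT value in WT replicate 2 (157 CPM). The 10 intermediate progenitor genes summed to 1887, 1546 and 1657 CPM in WT and to 1758, 1680 and 1416 in cKO, with replicates 1 highest and cKO replicate 3 lowest, as in the neuronal list. Tuba1b, which is no member, had 1249, 1747 and 1748 CPM in WT and 1209, 1865 and 1702 in cKO, and was thus lowest in the same libraries as the radial glia list.

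Set against the summed neuronal list, Map1b was at 0.389, 0.449 and 0.432 of it in WT and at 0.309, 0.445 and 0.408 in cKO. The genotypes overlapped on this scale, for Map1b and for each of the 10 members. The summed list itself ranged from 4819 to 6803 CPM over the libraries, so overlap is easily reached on this scale and says little about Map1b. The summed neuronal, radial glia and intermediate progenitor lists each overlapped between genotypes. No gene of any marker list passed the adjusted test, and the sums that follow are given without a test. The 8 Cajal-Retzius genes summed to between 462 and 560 CPM in WT and between 356 and 458 in cKO, without overlap, and 6 of the 8 had a negative fold change. Of these, Reln supplied most, at 383 to 468 CPM in WT and 284 to 382 in cKO. The 17 interneuron genes summed to between 204 and 277 CPM in WT and between 289 and 308 in cKO, also without overlap. Of the 15 tested, 13 had a positive and 2 a negative fold change. By edgeR, 6 were higher at an unadjusted p-value under 0.05, beside 1.75% of all genes. Among them Sst had an adjusted p-value of 0.0953, the lowest of all genes. In cKO replicate 3 the meninges list (7 genes) summed to 518 CPM and the epidermis list (5 genes) to 245, against at most 16.7 and 1.12 in any other library, although the fibroblast and meninges markers Foxc1 and Aldh1a2 were no higher there. The part of neuronal share, of these cell types and of the sequencing batches in the values of the members was not tested. The series description speaks of 3 batches without saying which libraries each holds.

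**Figure D3:**
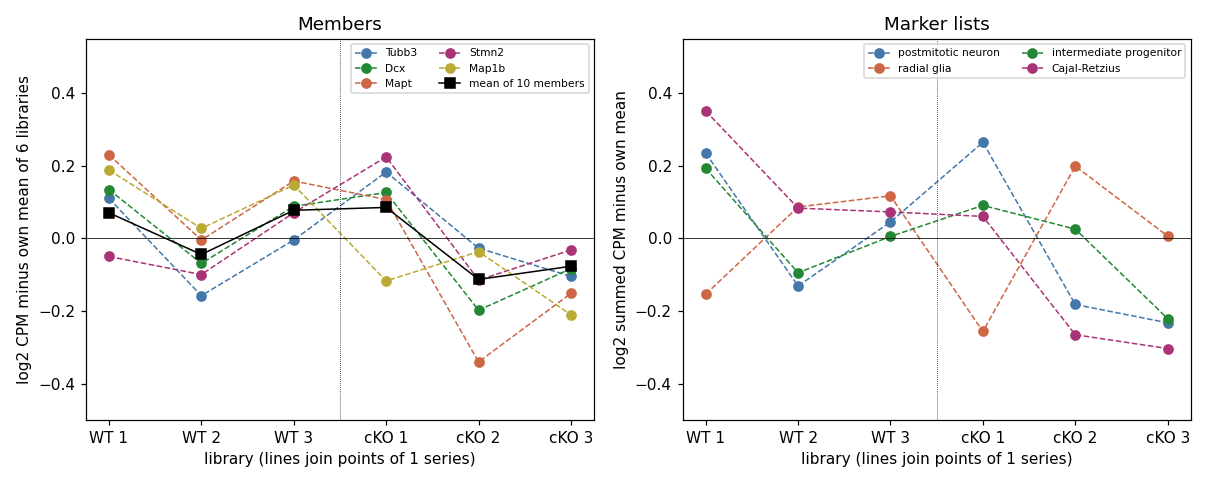
Deviation of log2 CPM from its own mean over the 6 libraries for 5 members and the mean of 10 (left), and of log2 summed CPM for 4 marker lists (right), with WT left and cKO right of the dotted line. The mean of the members is lowest in cKO replicate 2 (-0.11) and cKO replicate 3 (-0.077), where the neuronal list is low as well.

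The rest of the microtubule system was described from a list of 126 genes, of which 125 were in the table and 113 were tested. At an adjusted p-value under 0.05 in the edgeR test, 0 were higher and 0 were lower. At an unadjusted p-value under 0.05, 1 was higher and 2 were lower, beside 1.75% and 1.81% of all genes. The median log2 fold change of the list was -0.01, against 0.0019 over all genes, with 52 positive and 61 negative values. Of the 113, 5 had all cKO libraries above WT and 4 had all cKO libraries below, close to the 4.21% and 4.83% of all genes.

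Among the other tubulins (11 tested), the abundant isotypes were close between genotypes. Tubb5 was at 3078 ± 146 CPM in WT and 3019 ± 237 in cKO (SD, n = 3 each), Tubb4b at 263 ± 23.6 and 275 ± 38.0, and Tubb4a at 121 ± 12.9 and 129 ± 16.2. The γ-tubulin Tubg1, which nucleates microtubules, was at 66.5 ± 2.82 and 68.8 ± 6.15. Tubb6, a β-tubulin of non-neural tissues, was at 5.46, 4.15 and 4.31 CPM in WT and at 4.99, 5.02 and 11.1 in cKO, and only the library with skin and fibroblast transcripts was high. Its log2 fold change was 0.60 with all libraries and 0.11 without cKO replicate 3. The same library was the highest for Map7, which binds kinesin-1 to microtubules, at 8.45 CPM against 3.49 to 5.83 in the others. The log2 fold change of Map7 was 0.61, and 0.26 without that library.

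Paralogs of the members were compared next, and none passed the test. Stmn1, the most abundant stathmin, was at 1233, 1264 and 1252 CPM in WT and at 1397, 1383 and 1295 in cKO, without overlap in CPM. In TPM cKO replicate 3 and WT replicate 1 overlapped narrowly. Stmn1 differed by 0.12 ± 0.08 (SE) in log2 units, at an unadjusted p-value of 0.151 by edgeR. Stmn3 and Stmn4 had log2 fold changes of 0.05 and 0.12. The 4 other collapsin response mediators all had negative values, which were -0.08 for Crmp1, -0.13 for Dpysl2, -0.05 for Dpysl4 and -0.17 for Dpysl5. Each of the 4 overlapped between genotypes. Of the other structural proteins, Map1a (the paralog of Map1b that prevails in mature neurons) had a log2 fold change of -0.13, Dclk1 (a doublecortin-like kinase) of -0.11, Map4 of 0.04 and Map6 of -0.04, and the end-binding protein gene Mapre1 of -0.07.

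Genes of tubulin modification included both that were lower at an unadjusted p-value under 0.05. Ttl (tubulin tyrosine ligase, which adds the terminal tyrosine back to α-tubulin; chromosome 2, 129065947 to 129096283) was at 59.3, 54.3 and 59.7 CPM in WT and at 51.0, 44.3 and 48.3 in cKO. Its cKO libraries were all below its WT libraries in CPM, but in TPM cKO replicate 1 (26.0) lay above WT replicate 2 (25.7). In log2 units the difference was -0.27 ± 0.08 (SE). By edgeR the unadjusted p-value was 0.0103 and the adjusted one 0.99995, so that Ttl did not pass. The unadjusted value stayed under 0.05 in all 17 alternatives, between 0.00196 and 0.0470. Vash1, whose protein removes that tyrosine, was at 283, 250 and 248 CPM in WT and at 251, 212 and 201 in cKO. It overlapped between genotypes (log2 fold change -0.24 ± 0.10, SE, unadjusted p-value 0.0489, edgeR), and its unadjusted value exceeded 0.05 in 10 of the 17 alternatives, reaching 0.165 with WT replicate 2 and cKO replicate 3 left out. Vash2 and Svbp, the paralog and the cofactor of Vash1, had log2 fold changes of 0.04 and -0.03.

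The gene that was higher at an unadjusted p-value under 0.05 was Fign (fidgetin), a microtubule-severing enzyme. It was rare, at 4.52, 2.48 and 4.06 CPM in WT and 6.93, 7.34 and 5.91 in cKO, without overlap. It differed by 0.87 ± 0.23 (SE) in log2 units, at an unadjusted p-value of 0.00614 and an adjusted one of 0.99995 by edgeR. Vash1, Vash2, Svbp and Fign were chosen after their values were seen, as they lie outside the genes fixed by name. Tubulin folding factors (21 tested) had 15 positive and 6 negative fold changes with a median of 0.04, and nucleation factors (18 tested) had 8 positive and 10 negative with a median of -0.04. In neither group did a gene have an unadjusted p-value under 0.05.

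**Figure D4:**
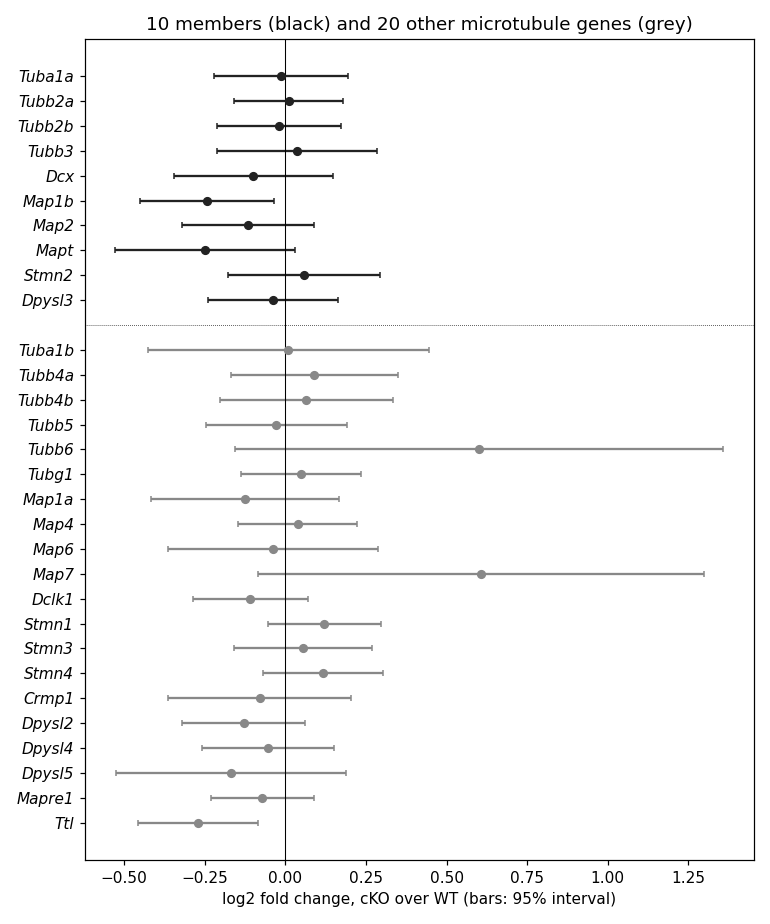
Log2 fold change of cKO over WT with its 95% interval from the edgeR fit, for the 10 members (black) and 20 other microtubule genes fixed by name (grey). Among the members only the interval of Map1b (-0.45 to -0.03) leaves out 0, before adjustment for the number of genes tested.

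The genes whose pattern over the 6 libraries came closest to the mean of the members were Apc, Gnl1, Atrnl1, Gopc and Epc1. The measure was the root mean square difference of centred log2 CPM, which was between 0.013 (Apc) and 0.026 (Epc1), against a median of 0.126 over 8258 eligible genes with a mean of at least 20 CPM. Apc, which encodes a tumour suppressor that also binds microtubule plus ends, was at 460, 414 and 451 CPM in WT and at 461, 401 and 412 in cKO. Like the members, it was highest in WT replicates 1 and 3 and in cKO replicate 1, which follows from how it was picked. A link between Apc and the members was not tested.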

How the data were processed

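Estimated counts, TPM and FPKM of 17348 genes were deposited by the authors in 1 table for 3 WT and 3 cKO libraries. The submitters' processing notes name HISAT2 2.2.1, Bowtie2 2.4.5 and RSEM 1.3.1 and the builds GRCm38 and mm10, without their roles. Strandedness and the annotation are not given in the sources used here. Read columns called Ctrl were matched to the samples titled WT. The estimated counts were deposited by the authors unscaled (10.9% of values not whole) and were rounded here. The TPM were deposited by the authors scaled to the same sum per library and served for levels between genes. The FPKM deposited by the authors and 6 columns of group averages were not used.

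Genes were kept by filterByExpr (minimum count 10, minimum total 15), leaving 13340, with TMM factors from 0.987 to 1.03. The main test was edgeR's quasi-likelihood test (edgeR 4.0.16, R 4.3.3), in which genotype was the single term, Benjamini-Hochberg adjustment over all tested genes and a threshold of 0.05. Standard errors are the log2 fold change over the square root of F. Log2 CPM used a prior count of 2. Alternatives used DESeq2 1.42.0, limma 3.58.1, other scalings and filters, log2(TPM + 1) and log2(TPM + 0.1), a replicate block and libraries left out. Intervals cover the spread between libraries.

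The members and gene lists were chosen with earlier results of these data known. Genes named besides the members were Ybx1, 20 microtubule genes fixed by name, the 5 genes closest in pattern with a mean CPM of at least 20, examples of the marker lists, and Vash1, Vash2, Svbp and Fign, which were chosen after their values were seen. Coding sequences are from GENCODE M21, gene positions from RefSeq on GRCm38.p6.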

Additional observations from a re-analysis of the deposited data

How the results depend on the processing

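In all 17 alternatives, 0 members and 0 genes of the wider microtubule list were called in either direction at an adjusted p-value under 0.05. The lowest adjusted p-value of a member was 0.485, for Mapt with the replicate block. Over all genes, DESeq2 called 2 in each direction. The replicate block called 1 in each direction, as did leaving out WT replicate 2 and cKO replicate 3 together, and leaving out 1 library called from 0 to 1 (1 only without WT replicate 2), against 0 with all libraries. The cause was not tested. Dcx, Map1b, Map2 and Mapt kept a negative fold change in all 17. At an unadjusted p-value under 0.05, the number of lower members was 1 and ranged from 0 to 2. It was 0 without WT replicate 1, without WT replicate 3, without cKO replicate 3 and with both doubtful libraries left out, and 2 (Map1b and Mapt) without cKO replicate 1 and with the replicate block. Without cKO replicate 1, 10 of the 10 members had a negative fold change, against 7 with all libraries. Without cKO replicate 2, without WT replicate 3 and with library totals only it was 5 of the 10, and with upper-quartile factors 6. In the other alternatives it was between 7 and 9.

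The main fit used no replicate block, because the study's methods name none. The methods do report 3 independent replicate experiments and littermate controls. Whether libraries of the same number share an experiment or a litter is not stated. Libraries of the same number deviated together in part. Deviations from the genotype mean correlated at 0.41, 0.31 and -0.02 between libraries numbered 1, 2 and 3, and 4 of the 6 libraries correlated best with the library of their own number. At an unadjusted p-value under 0.05 the replicate block gave 476 higher and 614 lower genes, against 234 and 242 without it, and with it Map1b had an unadjusted p-value of 0.00998 and Mapt of 0.00365.

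Members near 0 changed sign. The log2 fold change of Tuba1a was 0.00026 with upper-quartile factors and 0.011 with library totals only, and that of Tubb2b was 0.0047 with library totals only. With both doubtful libraries left out, Tubb2a was at -0.036 and Map4 at -0.021. Over the fits that each left out 1 library, ranges were -0.049 to 0.017 for Tuba1a, -0.022 to 0.065 for Tubb2a, -0.045 to 0.029 for Tubb2b, -0.044 to 0.10 for Tubb3, -0.040 to 0.13 for Stmn2 and -0.091 to 0.013 for Dpysl3. For genes of the wider list they were -0.13 to 0.18 for Tuba1b, -0.0073 to 0.16 for Tubb4a, -0.025 to 0.18 for Tubb4b, -0.086 to 0.036 for Tubb5, -0.029 to 0.092 for Tubg1, -0.026 to 0.099 for Map4, -0.20 to 0.053 for Map6, -0.046 to 0.11 for Stmn3, -0.18 to 0.016 for Crmp1 and -0.089 to 0.023 for Dpysl4, which was at -0.10 with both doubtful libraries left out. The share of higher genes among unadjusted calls moved with scaling, from 234 higher and 242 lower to 320 and 169 with library totals only, where the all-gene median was 0.026.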
